A study of Nothobranchius furzeri with 8 samples.

Results

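The miRNA family mir-22 was 1 of 324 features counted in small RNA of the killifish Nothobranchius furzeri, an annual fish with a short life, in brains of males of the wild-derived strain MZM-04/10p. It was chosen from earlier results of the same counts as an abundant family whose share was higher in the older fish, so its levels and its change with age are given as a description, with no test. The 8 small RNA libraries comprised 4 from fish aged 6 weeks and 4 from fish aged 26 weeks, and within each age they carry the numbers I to IV. The labels name no treatment, and for the older libraries the titles have 22 where the age label says 26 weeks. Whether a library came from 1 fish or from pooled fish is not stated, so the spread between libraries may in part be technical. Totals ran from 2992917 to 4151620 counts at 6 weeks and from 3347810 to 5715409 at 26 weeks. The neuronal families mir-9 and mir-124, which mark brain tissue, averaged 69261 and 3928 CPM (the usual count rate relative to the TMM-scaled library size) at 6 weeks.

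MicroRNAs are short RNAs that guide Argonaute proteins to messenger RNAs through a seed near their 5′ end and lower the output of those messengers. miR-22 is conserved across vertebrates, and in mammals it is made from a non-coding host transcript and is abundant in heart, skeletal muscle, blood cells and brain. Work in mammalian cells has reported the histone deacetylase HDAC4 among its targets, and has tied it to neuronal survival and to cell senescence. Counts here are per family, so paralogues and the arms of the hairpin cannot be told apart.

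At 6 weeks mir-22 was counted 48814, 51111, 67668 and 43140 times in libraries I to IV. At 26 weeks its counts were 72679, 140704, 121071 and 90298. As a share of all counts this was 1.63%, 1.57%, 1.63% and 1.40% in the younger libraries and 2.17%, 2.46%, 2.26% and 1.99% in the older ones. All 4 older libraries lay above all 4 younger ones, and the lowest older share exceeded the highest younger share by 0.357 percentage points. The 95% Wilson interval of the 6-week IV share, the lowest of all, was 1.38% to 1.41%, and that of the 26-week II share, the highest, was 2.45% to 2.47%. These intervals cover counting error only and were narrower than the SD between libraries of 1 age. On average the share went from 1.56 ± 0.111% in the younger to 2.22 ± 0.197% in the older brains (mean ± SD of 4 libraries each), a ratio of 1.43.

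After TMM scaling, which sets libraries to a common level from the bulk of the features, mir-22 stood at 14019, 14397, 16005 and 13247 CPM in the 6-week libraries I to IV and at 19508, 28580, 25626 and 22908 CPM in the 26-week libraries I to IV. The ages again did not overlap, with the 26-week I library closest to the younger ones. The means were 14417 ± 1162 CPM and 24156 ± 3868 CPM (SD, n = 4 each), and the fitted difference was 0.74 ± 0.13 on the log2 scale (edgeR estimate ± SE), or 1.68-fold. By share the lowest older library was IV, and by CPM it was I, because the scaling factor of the 26-week I library was 1.11 against 0.861 to 0.882 in the other 3. Between libraries of the same number, the CPM ratio of the older to the younger was 1.39 for I, 1.99 for II, 1.60 for III and 1.73 for IV. In bulk tissue, more cells that hold mir-22 and more mir-22 per cell cannot be told apart.

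**Figure D1:**
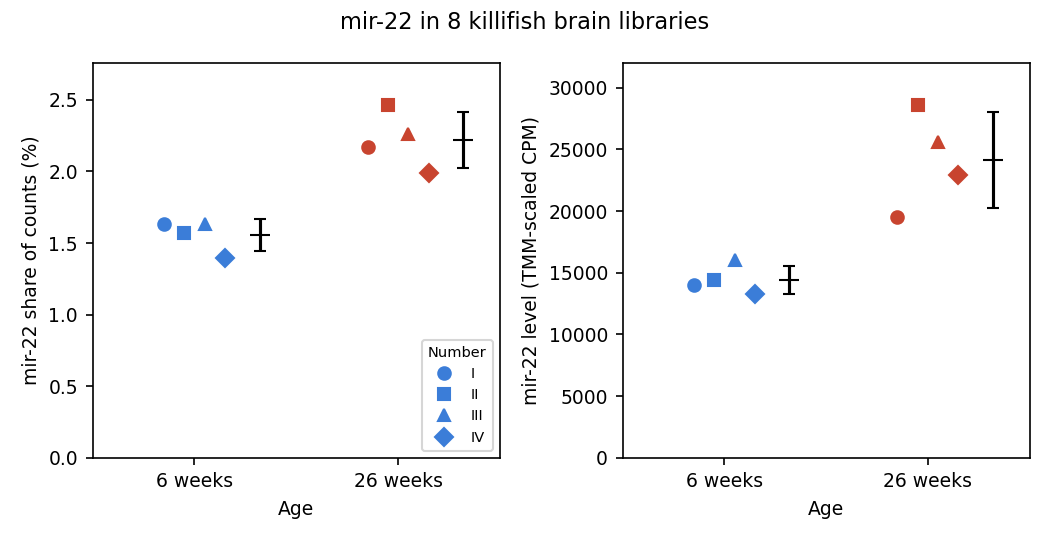
Share of counts in percent (left) and TMM-scaled CPM (right) of mir-22 in each library by age; symbols give the library number, and the black bar is the mean with its SD (n = 4 each). All 26-week libraries, from 1.99% and from 19508 CPM, lie above all 6-week libraries, up to 1.63% and 16005 CPM.

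The size of the rise depended on scaling, because scaling moved all features together. With total counts alone the log2 change of mir-22 was 0.51 and the median of all 212 tested features was -0.29, against 0.74 and -0.06 with TMM. With upper-quartile factors the values were 0.59 and -0.24. Relative to that median, mir-22 stood 0.80 higher on the log2 scale with both TMM and total counts and 0.82 higher with upper-quartile factors. Its log2 change exceeded that of 89.6% of the tested features with TMM.

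Depth moved with the TMM-scaled level of mir-22, and less so with its share. Among the 26-week libraries the order by CPM, from I through IV and III to II, was also their order by total count. This held for 12 of the 90 families of at least 100 CPM, and the reverse order for 4. By share the 26-week order was IV, I, III and II. At 6 weeks the deepest library, III, also had the highest CPM, but its share of 1.63% was that of the shallowest, I. Depth and age cannot be fully told apart here. The depths of the ages overlapped only through the 26-week I library. The comparisons that follow rest on this 1 older library, whose scaling factor was 1.11. The 26-week I library held 0.806 times the counts of the 6-week III library, and its mir-22 level was 1.22 times as high in CPM and 1.33 times as high in share. Compared with the 6-week II library, which had nearly the same total (a ratio of 1.03), it was 1.35 times as high in CPM and 1.38 times in share. With the log2 total as a covariate the fitted log2 change of mir-22 was 0.44 ± 0.10 (edgeR estimate ± SE).

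**Figure D2:**
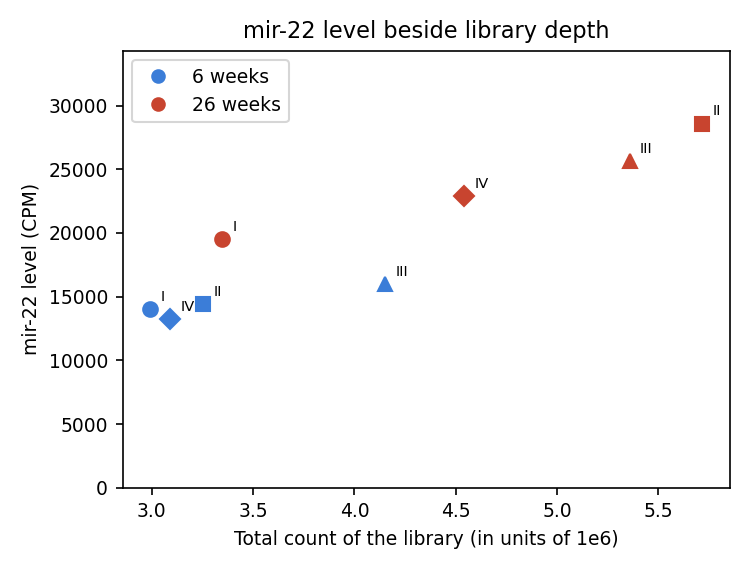
TMM-scaled level of mir-22 in CPM against the total count of each library, with the library number beside each point. At 26 weeks the 4 libraries rise in the order of their totals, and the shallow 26-week I library, at 19508 CPM, lies above the deeper 6-week III library, at 16005 CPM.

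In the order of levels, mir-22 was the 10th most abundant of the named families over all libraries, at 19286 CPM, with the caveat that adapter ligation favours some sequences and makes levels of different miRNAs less comparable. By raw count it ranked 12th, 12th, 12th and 15th of all features in the 6-week libraries I to IV and 9th, 10th, 10th and 11th in the 26-week libraries. At 6 weeks its nearest neighbours were mir-92 at 16830 ± 1592 CPM, a family of the miR-17-92 clusters, and mir-132 at 14210 ± 1591 CPM, which responds to neuronal activity (SD, n = 4 each). At 26 weeks they were mir-27 at 24682 ± 4866 CPM and mir-10 at 23619 ± 12373 CPM, a family known from Hox clusters. The range of each of these neighbours overlapped that of mir-22 at the same age, so their order is not resolved.

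Across all 212 tested features, 10.4% were higher and 3.77% were lower in the older brains at a Benjamini-Hochberg adjusted p under 0.05 (quasi-likelihood test of edgeR), and rose or fell is used only of features that passed this test. The ages did not overlap, with the older libraries higher, in 14.2% of tested features and with the older libraries lower in 7.55%. With the library number as a block the number that passed went from 30 to 59, without the 26-week I library to 47, without both libraries numbered I to 50, and with the log2 total as a covariate to 4. By DESeq2 28 of the 212 were higher and 10 lower, and 62 had an unadjusted edgeR p under 0.05 in either direction. Of the 16 other families of at least 10000 CPM, 4 rose and 0 fell by edgeR and by DESeq2, and at an unadjusted edgeR p under 0.05 the counts were 6 and 0. Set beside them, the log2 change of mir-22 came after mir-338 at 1.26 ± 0.12 and mir-27 at 0.89 ± 0.17, and ahead of mir-132 at 0.70 ± 0.14 (SE). The median of the 16 was 0.10.

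**Figure D3:**
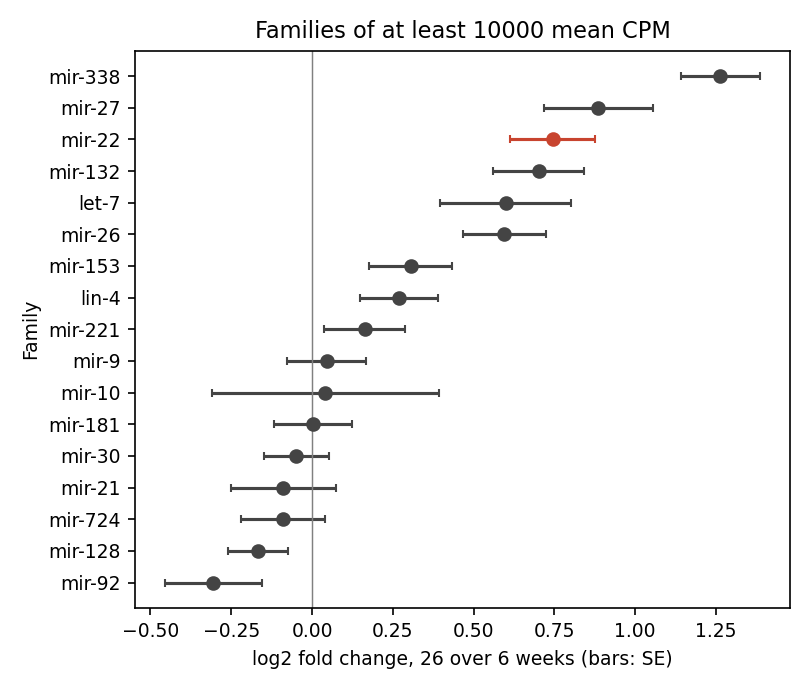
Fitted log2 fold change, 26 over 6 weeks, with its SE, for the 17 families of at least 10000 mean CPM. The value of mir-22 (red, 0.74) stands between mir-27 (0.89) and mir-132 (0.70), and mir-181, mir-10 and mir-9 lie near 0.

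Ratios of counts within a library do not depend on scaling. The ratio of mir-22 to mir-132 was close to 1 throughout, at 1.11, 1.05, 0.974 and 0.948 in the 6-week libraries I to IV and at 1.08, 1.14, 0.956 and 1.03 in the 26-week ones. The ages overlapped, and the mean ratio was 1.02 ± 0.0723 in the younger and 1.05 ± 0.0769 in the older libraries (SD, n = 4 per age), while both levels were higher at 26 weeks. The ratio to mir-27, a family of the miR-23/24/27 cluster, ran from 0.923 to 1.32 at 6 weeks and from 0.926 to 1.09 at 26 weeks, and these ranges overlapped too. By contrast, the ratio to the fish family mir-724 ran from 0.533 to 0.728 at 6 weeks and from 0.956 to 1.35 at 26 weeks, with no overlap. The ratio to mir-10 was 1.86, 0.709, 1.13 and 1.09 in the 26-week libraries I to IV, of which the 26-week II library lay within the 6-week range of 0.472 to 0.743. Of the 16 other families of at least 10000 CPM, 14 had a lower mean log2 level relative to mir-22 at 26 weeks, and for 9 of them the ages did not overlap. Because mir-22 was chosen for its higher share at 26 weeks, these counts largely follow from that choice and lend it no separate support. The same count over all tested features was not made. Of the same 16, mir-338 was the 1 family against which the ratio of mir-22 was lower at 26 weeks with no overlap, with a log2 difference of -0.52.

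**Figure D4:**
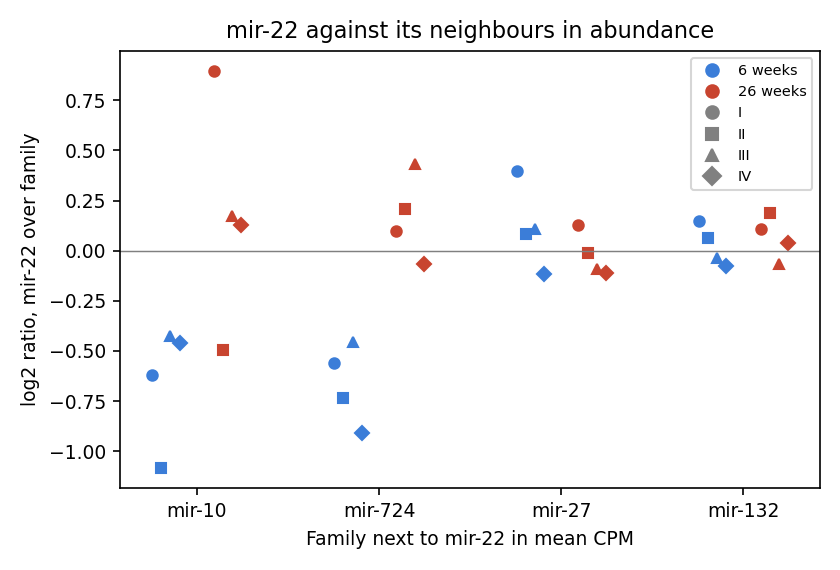
Log2 ratio of mir-22 counts to those of the 2 families next above it (mir-10, mir-724) and next below it (mir-27, mir-132) in mean CPM, in each library; symbols give the library number. The ratios to mir-132 lie near 0 at both ages, and those to mir-724 do not overlap between ages.

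Against mir-181, the most abundant family here, the 26-week libraries hardly differed from one another. For each count of mir-181 there were 0.0885, 0.0906, 0.0876 and 0.0894 counts of mir-22 in the 26-week libraries I to IV. At 6 weeks the values were 0.0555, 0.0538, 0.0611 and 0.0441. The younger libraries were more spread in this ratio, with an SD of 0.00708 against 0.00128 (n = 4 each). On the log2 scale its 26-week SD of 0.0207 was the smallest among the ratios looked at, with mir-451 next at 0.0284. It is thus the extreme of a set of ratios, each from 4 libraries per age.

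Within an age, mir-22 varied less than most families of at least 100 CPM, but about as much as other families of like abundance. Its pooled within-age SD of log2 CPM was 0.185, against a median of 0.256 over the 90 families of at least 100 CPM, where it ranked 29th from the smallest. Among the 17 most abundant families it ranked 10th, beside a median of 0.182. No mir-22 library stood apart from its group: the largest gap to the nearest other library took 0.560 of the range at 6 weeks and 0.421 at 26 weeks, below Dixon's critical value of 0.829. The libraries farthest from their age mean were 26-week I at -0.29 and 26-week II at 0.26 on the log2 scale.

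The families nearest to mir-22 were found from the root mean square distance between log2 CPM profiles over the 8 libraries, each centred on its own mean. This likeness includes the difference between ages for which mir-22 was chosen. Of 89 families, mir-23 was nearest at 0.0871, followed by mir-132 at 0.0924, mir-132b at 0.140, mir-455 at 0.144 and mir-27 at 0.162, beside a median of 0.433. All 5 rose, against 10.4% of all tested features. Choosing families near mir-22 over both ages largely fixes this count in advance, so it lends no separate support. The log2 change was 0.80 ± 0.14 for mir-23 (adjusted p = 0.0109, edgeR, Benjamini-Hochberg). By the same test it was 0.54 ± 0.12 for mir-132b (adjusted p = 0.0167) and 0.66 ± 0.15 for mir-455 (adjusted p = 0.0179). With upper-quartile factors mir-132, mir-132b and mir-455 no longer passed, nor did mir-455 with total counts alone. With the log2 total as a covariate none of these 5 passed (edgeR, Benjamini-Hochberg adjusted p from 0.102 to 0.223). Reads may be shared between mir-132 and mir-132b. Per count of mir-23 there were 20.6 to 23.4 counts of mir-22 at 6 weeks and 19.7 to 22.8 at 26 weeks.

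**Figure D5:**
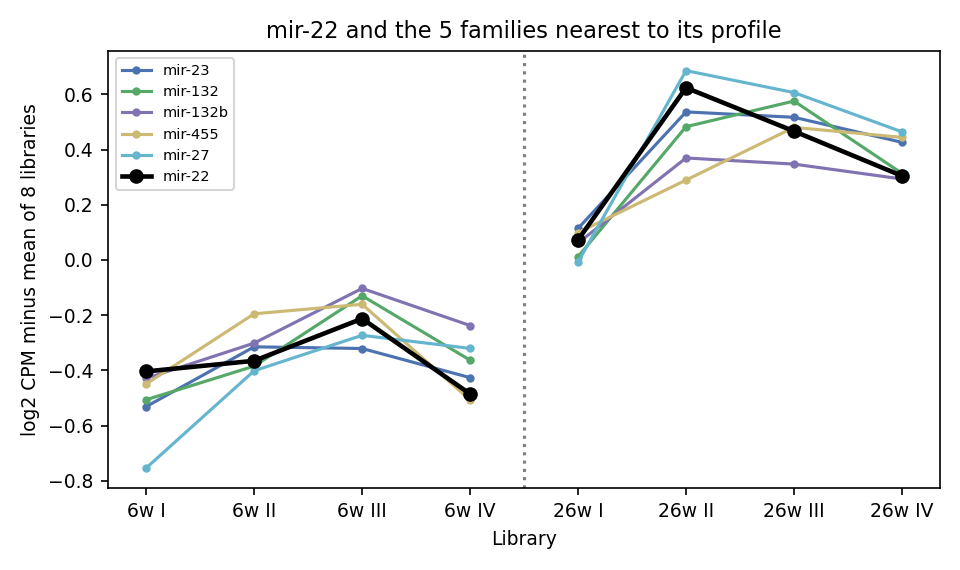
Log2 CPM of mir-22 (black) and of the 5 families nearest to its profile in each library, minus each family's mean over the 8 libraries; lines only guide the eye between libraries of 1 age. All 6 families lie below 0 in the 4 younger libraries, and each is higher in the 26-week I library than in any of them. This pattern largely follows from choosing the 5 by nearness to mir-22 over both ages.

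When profiles were centred within each age, so that the difference between ages did not enter, mir-23 (0.0812) and mir-132 (0.0901) were again nearest. They were followed by the red-cell family mir-451 (0.0940), by mir-132b (0.0993) and by mir-25 (0.119), a relative of mir-92, beside a median of 0.234. The other erythroid family tested, mir-144, lay beyond that median at 0.269 and ranked 56th. The ratio of mir-22 to mir-451 was 45.3, 38.7, 49.7 and 45.7 in the 6-week libraries I to IV and 33.4, 34.4, 33.6 and 32.8 in the 26-week ones. Every older library was below every younger one, and the older libraries were close to one another. The ratio to mir-25, whose own change did not pass at 0.33 ± 0.14 (edgeR, Benjamini-Hochberg adjusted p = 0.145), went from 7.38 ± 0.909 to 9.77 ± 0.629 (SD, n = 4 each). Profiles in the same libraries share depth and scaling, so nearness is a description of these libraries.

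Families tied in mammals to targets or processes linked to miR-22 are given by list, each beside the background of 10.4% higher and 3.77% lower. Of 4 HDAC4-linked families, with a median of 0.02 beside -0.06 for all tested features, mir-29 rose (1.69 ± 0.15 on the log2 scale, adjusted p = 2.14e-04, edgeR, Benjamini-Hochberg), and the muscle family mir-1 was at -0.10 ± 0.45. Of 9 senescence-linked families, with a median of -0.01, mir-29 rose and mir-217 fell (-0.73 ± 0.18, adjusted p = 0.0212, edgeR, Benjamini-Hochberg), and mir-34, which p53 induces in mammals, was at 0.22 ± 0.35. The call of mir-217 did not hold without a filter on low counts or without the 6-week II or III or the 26-week II or III library (adjusted p up to 0.115). Of 4 families tied to the neuronal repressors REST and CoREST, mir-132, mir-132b and mir-124 (0.92 ± 0.21) rose, mir-9 was at 0.05 ± 0.12, and the median was 0.62. As reads may be shared between mir-132 and mir-132b, they may not count as separate members. With upper-quartile factors 0 of these 4 passed, with adjusted p of 0.0503 for mir-124, 0.0545 for mir-132 and 0.0961 for mir-132b (edgeR, Benjamini-Hochberg). With the log2 total as a covariate, mir-29, mir-219 and mir-338 were the only members of these or the marker lists to pass.

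Some markers of cell types that hold miR-22 in mammals were also higher at 26 weeks. They are given by list beside the same background of 10.4% higher and 3.77% lower. Of 2 erythroid families mir-451 rose (1.15 ± 0.17, adjusted p = 0.00326, edgeR, Benjamini-Hochberg) and mir-144 was at 0.06 ± 0.16. Their summed level was 754 to 973 CPM at 6 weeks and 1152 to 1311 CPM at 26 weeks, and the level of mir-22 was on average 17.5 and 19.2 times this sum. Of 5 leucocyte families 3 rose, mir-142 by 0.75 ± 0.17, mir-223 by 1.06 ± 0.25 and mir-150 by 0.84 ± 0.23. The others did not pass, with mir-155 at 0.45 ± 0.48 and mir-146, the most abundant of them at 6 weeks, at -0.04 ± 0.33 (means of 260 and 253 CPM at 6 and 26 weeks). The list median was 0.75, and the sums were 471 to 565 and 487 to 909 CPM at 6 and 26 weeks. With total counts alone 0 of these 5 passed (adjusted p from 0.0702 to 0.144 for those 3, edgeR, Benjamini-Hochberg). Without the 6-week II, III or IV library mir-150 did not pass either, with adjusted p of 0.0646 to 0.0716, nor with upper-quartile factors (adjusted p = 0.0980). Of 3 muscle families 0 passed, by edgeR, by DESeq2 and at an unadjusted edgeR p under 0.05. Of all 212 tested features 38 passed by DESeq2, and 62 had an unadjusted edgeR p under 0.05. In the muscle list mir-133 was at 0.16 ± 0.14 and mir-499 at -0.25 ± 0.30, with a median of -0.10, and sums of 1107 to 1319 and 1175 to 1604 CPM. The part of blood, leucocytes and muscle in the mir-22 difference was not tested.

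Both oligodendrocyte families, which promote myelination, rose, mir-338 at 1.26 ± 0.12 and mir-219 at 1.39 ± 0.28, with sums of 8817 to 10347 CPM at 6 weeks and 18661 to 26728 CPM at 26 weeks. With total counts alone mir-219 did not pass (adjusted p = 0.0579, edgeR, Benjamini-Hochberg). Of 7 neuron-enriched families mir-124 rose, beside 10.4% of all tested features. This call was lost with total counts alone (adjusted p = 0.0576, edgeR, Benjamini-Hochberg) and with upper-quartile factors. The list median was -0.05, with mir-153 at 0.30, mir-9 at 0.05, mir-137 at -0.05, mir-218 at -0.10, mir-128 at -0.17 and mir-138 at -0.24. The sums were 152641 to 168425 and 149947 to 170806 CPM at 6 and 26 weeks. Of 3 vessel wall families 0 passed by edgeR, 1 passed by DESeq2 and 2 had an unadjusted edgeR p under 0.05. Of all 212 tested features the numbers in the same order were 30, 38 and 62. In this list mir-145 was at 0.58 ± 0.18, mir-126 at 0.61 ± 0.24 and mir-143 at 0.24 ± 0.18, with sums of 9022 to 13193 and 10663 to 18556 CPM. In the fit blocked on the number, mir-145 and mir-126 passed (adjusted p = 0.0287 and 0.0241, edgeR, Benjamini-Hochberg). The part of these cell types in the mir-22 difference was not tested.

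Lists for tissue that might be carried over in dissection, and for choroid plexus and neuroendocrine cells, had 0 members that passed by edgeR or DESeq2. With an unadjusted edgeR p under 0.05 there was 1, mir-205. The lists held 3 liver and gut, 6 epithelial and sensory, 1 choroid plexus and 2 neuroendocrine families. Of all 212 tested features 30 passed by edgeR, 38 passed by DESeq2 and 62 had an unadjusted edgeR p under 0.05. With so few members the 0 says little about these tissues. The liver and gut families summed to 93.8 to 120.0 CPM at 6 weeks and 75.9 to 202 CPM at 26 weeks, with mir-194 at 0.44 ± 0.25 and mir-122 at -0.41 ± 0.33. The 6 epithelial and sensory families summed to 4065 to 6416 and 4382 to 5946 CPM, with a median of -0.20. The lowest were mir-205 at -0.81 ± 0.35 and mir-96 at -0.77 ± 0.53, beside mir-183 at -0.26, mir-203 at -0.13, mir-182 at -0.12 and mir-8 at 0.02. With the library number as a block mir-205 passed (adjusted p = 0.0407, edgeR, Benjamini-Hochberg). In the choroid plexus list mir-204 was at 0.34 ± 0.19, with 4484 to 6305 and 4899 to 8816 CPM. The neuroendocrine families mir-375 and mir-7 were at -1.19 ± 1.03 and 0.06 ± 0.44, and summed to 1076 to 1635 and 696 to 2250 CPM. Without the 26-week I library mir-375 was at -2.39 and did not pass, and without both libraries numbered I it was at -2.78 and passed (adjusted p = 0.0137, edgeR, Benjamini-Hochberg). No measured marker of these lists had a total of 0 over the libraries.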

How the data were processed

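Per the labels' protocols, total brain RNA was turned into libraries with Illumina's TruSeq kit for small RNA. The submitters' processing notes list SAMtools 1.3.1-9, BWA 0.7.12-r1039, Trimmomatic 0.36 and bcl2fastq 1.8.4. The authors deposited raw counts per miRNA family. How reads with several loci were treated, the counter, the annotation and the build were not given in the sources used here.

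Columns were matched to samples by title and grouped by the age label. Counts were analysed in R 4.3.3 with edgeR 4.0.16 (quasi-likelihood test, TMM, filterByExpr, two-sided, Benjamini-Hochberg over 212 tested features, threshold 0.05); 112 features with 0.00948% of counts were filtered out. SE is the absolute log2 fold change over the square root of F. Log2 CPM used a prior count of 2. Alternatives included DESeq2 1.42.0 and limma-voom from limma 3.58.1. The fit was also run on simulated counts drawn independently for each library. That setting lacks any likeness between libraries of the same number, and no result here rests on it. The lowest chi-square per degree of freedom between libraries of an age was 131, so none were copies. Deviations from age means correlated by 0.287 to 0.528 between same-numbered libraries, and at most 0.234 otherwise. The numbers were therefore treated as possible pairs, though the labels do not say what they mark. The main estimates, SEs and adjusted p values came from a model without pairing. Pairing was modelled only in the replicate-block alternative, where the SE of the mir-22 log2 change was 0.105 against 0.131 in the main model. The members and lists were chosen with earlier results of these data known. Named besides mir-22 were the 2 families next above and next below it in CPM, the 5 nearest by each distance, and per list up to 4 members that passed, or the 2 of smallest p; 1 list of the design is not reported here; others are named as context after their values were seen.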

Additional observations from a re-analysis of the deposited data

Results flagged for a closer look

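Among 70 groups of 4 libraries checked for the named families, the totals and the mir-22 ratios, 3 had a library beyond Dixon's critical value for the distance to its nearest neighbour, and chance gives about 1 in 20, or 3.5. None concerned mir-22. The log2 CPM of mir-124 was 13.41 in the 26-week III library, while I, II and IV lay at 12.58 to 12.65. For mir-150 the 6-week I library was at 5.48 and the others at 4.78 to 4.89. For mir-375 the 6-week I library was at 4.30 and the others at 8.80 to 9.50.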

How the results depend on the processing

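The log2 change of mir-22 was above 0 under all 20 alternatives, from 0.44 with the log2 total as a covariate and 0.51 with total counts alone up to 0.86. It was 0.74 to 0.86 when 1 library at a time was left out, and 0.73 with the replicate block. Relative to the median of all tested features it was 0.39 with the covariate and 0.72 to 0.92 under the other alternatives. The share difference of 0.663 percentage points became 1.65 without the 5 most abundant families in the denominator. The within-age SD of log2 CPM was 0.118 with total counts alone. The number of features that passed was 59 with the replicate block (35 higher and 24 lower), 50 without both libraries numbered I, 4 with the covariate and 23 to 47 without 1 library. The split of 22 higher and 8 lower became 15 and 12 with total counts and 15 and 11 with upper-quartile factors. Of the list members, 11 passed, against 7 with upper-quartile factors, 6 with total counts and 3 with the covariate. Over all 212 tested features the numbers in the same order were 30 (14.2%), 26, 27 and 4. No share was worked out over the members of all lists, which were chosen with earlier results of these data known. These numbers are therefore no result about the lists. The causes were not tested. The block otherwise changed the calls stated for mir-126, mir-145 and mir-205. The same 5 nearest families were found with total counts and with a prior count of 0.5. Totals and age are largely confounded, so the parts of depth and of age in the mir-22 difference cannot be fully told apart.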
